A study of Homo sapiens with 2 samples.

Results

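The genes described are 37 members of 2 families that fix cells to their matrix: 26 integrin genes, which encode the cell-surface receptors, and 11 laminin genes, which encode chains of the basement membrane. They were taken by family name, by a rule that uses no measured value, out of 19974 protein-coding genes on chromosomes 1 to 22 and X. For each gene, the summits of JUNB peaks were counted from 10 kb before to 10 kb after its span in the RefSeq annotation of GRCh38. Binding was measured by CUT&RUN, in which an antibody, here against JUNB, brings a nuclease to the chromatin it recognises, and the fragments cut free are sequenced. The cells were IMR-90, human lung fibroblasts. There was 1 library of untreated cells and 1 library of cells given etoposide, a topoisomerase II inhibitor that breaks DNA and is used to make cultured cells senescent; the dose and the time of treatment are not given in the sources used here. No difference between the 2 libraries can be set against a spread between replicates, so every difference below describes these libraries and carries no test.

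An integrin is a pair of an alpha and a beta chain that spans the cell membrane, binds a matrix protein or another cell outside, and is tied inside through talin, kindlin and other focal adhesion proteins to the actin cytoskeleton. A laminin is a three-chain protein, with 1 alpha, 1 beta and 1 gamma chain, that polymerises into the sheet of the basement membrane and is itself bound by several integrins. JUNB is a subunit of AP-1, a dimeric transcription factor whose consensus site is TGANTCA and which in fibroblasts occupies many sites far from gene starts.

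Listed JUNB peaks overlapped few gene starts of members, as of protein-coding genes at large. The sequences of 3 promoters show where the AP-1 consensus stands in relation to listed peaks. RefSeq promoter windows, from 250 bases before to 50 after a start, were at hand for 26 members with 33 starts; ITGA3, ITGA7, ITGA9, ITGAD, ITGAL, ITGAX, ITGB2, ITGB3, ITGB4, LAMA1 and LAMC3 were not matched. A listed peak overlapped 2 (untreated) and 1 (etoposide) of the 33 windows, beside 11.0% and 3.13% of the 22132 windows of protein-coding genes. As shares of the 33 these are 6.06% and 3.03%, on counts too small to set the members apart from other genes. TGANTCA, which reads alike on both strands, was found in 3 of the 33 windows, beside 6.15% of all windows. Those 3 are printed from 150 bases before to 20 bases from the start on, 5′ to 3′ on the strand of the gene, from RefSeq GRCh38.p14, with TGANTCA in capitals. ITGA5 is at chr12:54419247-54419416 on the minus strand. LAMB3, at the most internal of its starts, is at chr1:209651355-209651524 on the minus strand. LAMA3, at the internal start of the gene, is at chr18:23872870-23873039 on the plus strand.
ITGA5: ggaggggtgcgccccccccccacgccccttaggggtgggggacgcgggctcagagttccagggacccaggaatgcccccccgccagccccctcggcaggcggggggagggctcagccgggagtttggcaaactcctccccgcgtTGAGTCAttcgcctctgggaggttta
LAMB3: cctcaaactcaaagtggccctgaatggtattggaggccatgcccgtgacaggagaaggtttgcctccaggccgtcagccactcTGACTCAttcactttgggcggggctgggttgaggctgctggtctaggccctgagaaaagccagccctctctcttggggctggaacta
LAMA3: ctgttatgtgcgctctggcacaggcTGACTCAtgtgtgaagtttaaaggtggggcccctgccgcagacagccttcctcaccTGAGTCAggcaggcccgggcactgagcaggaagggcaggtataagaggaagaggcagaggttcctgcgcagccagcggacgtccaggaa

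ITGA5 and LAMB3 were also the 2 members whose promoter window overlapped a peak. In ITGA5 the capitals begin 6 bases before the start, and the untreated peak at 54419288 to 54419497 began 16 bp beyond them, with its summit 76 bp from the middle of the site. In LAMB3 the capitals begin 67 bases before its internal start. The listed peaks, whose summits lay after that start, ended 39 bp (untreated) and 52 bp (etoposide) short of the capitals. Their summits were 148 and 224 bp from the middle of the site. Neither site was inside a listed peak. The internal LAMA3 start has 2 copies, beginning 125 and 69 bases before it, and no listed peak overlapped that window in either library. Over protein-coding genes, TGANTCA was in 10.5% of windows that overlapped an untreated peak, 20.8% of those that overlapped an etoposide peak and 5.50% of those that overlapped none. The related CRE-type site TGACGTCA was in 0 of the 33 member windows and 2.26% of all.

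The 2 lists hold 32550 untreated and 25739 etoposide peaks on these chromosomes. Peak strength is given below as the number of fragments at the summit, recovered from the authors' fold and p; its medians were 15 (untreated) and 13 (etoposide), and its lowest value was 5 in each list. The etoposide library was estimated at 0.836 times the depth of the untreated library. A place without a listed peak may still carry JUNB signal under the threshold of the list. As a check of the label, summits were counted at marker genes: 9 of 10 fibroblast markers had an untreated and 8 an etoposide summit, where genes of the same lengths would give 4.97 and 3.63, while leukocyte markers had 5 and 2 of 10, where length would give 4.10 and 2.92. Epithelial markers had 4 and 1 of 6 (length 2.65 and 2) and endothelial markers 4 and 3 of 5 (length 3.41 and 2.92). The number of genes with an untreated summit was thus above length in these lists too. Peak lists do not measure expression, so this describes binding near those genes only.

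In each library 27 of the 37 members had at least 1 summit within 10 kb, 73.0% (95% Wilson interval 57.0% to 84.6%, counting error only). Over all protein-coding genes the shares were 49.6% (untreated) and 38.9% (etoposide). The members have a median length of 79.4 kb, and the share of genes with a summit was higher among long genes than among short ones. To allow for this, each member was set beside the 400 protein-coding genes nearest to it in length. Summed over the members, those genes gave 24.0 (untreated) and 20.6 (etoposide) with a summit. The members' number was 1.13 and 1.31 times these. As shares, length gives 64.8%, inside the interval above, and 55.6%, just under it. Summit numbers stood further from length: 99 untreated summits where length gives 70.3, and 78 etoposide summits where it gives 52.4. There were 25 members with summits in both libraries, 2 in the untreated library alone (ITGB2 and LAMA1), 2 in the etoposide library alone (ITGB1 and ITGB7) and 8 in neither. The same shares over all protein-coding genes were 34.3%, 15.3%, 4.61% and 45.8%.

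**Figure D1:**
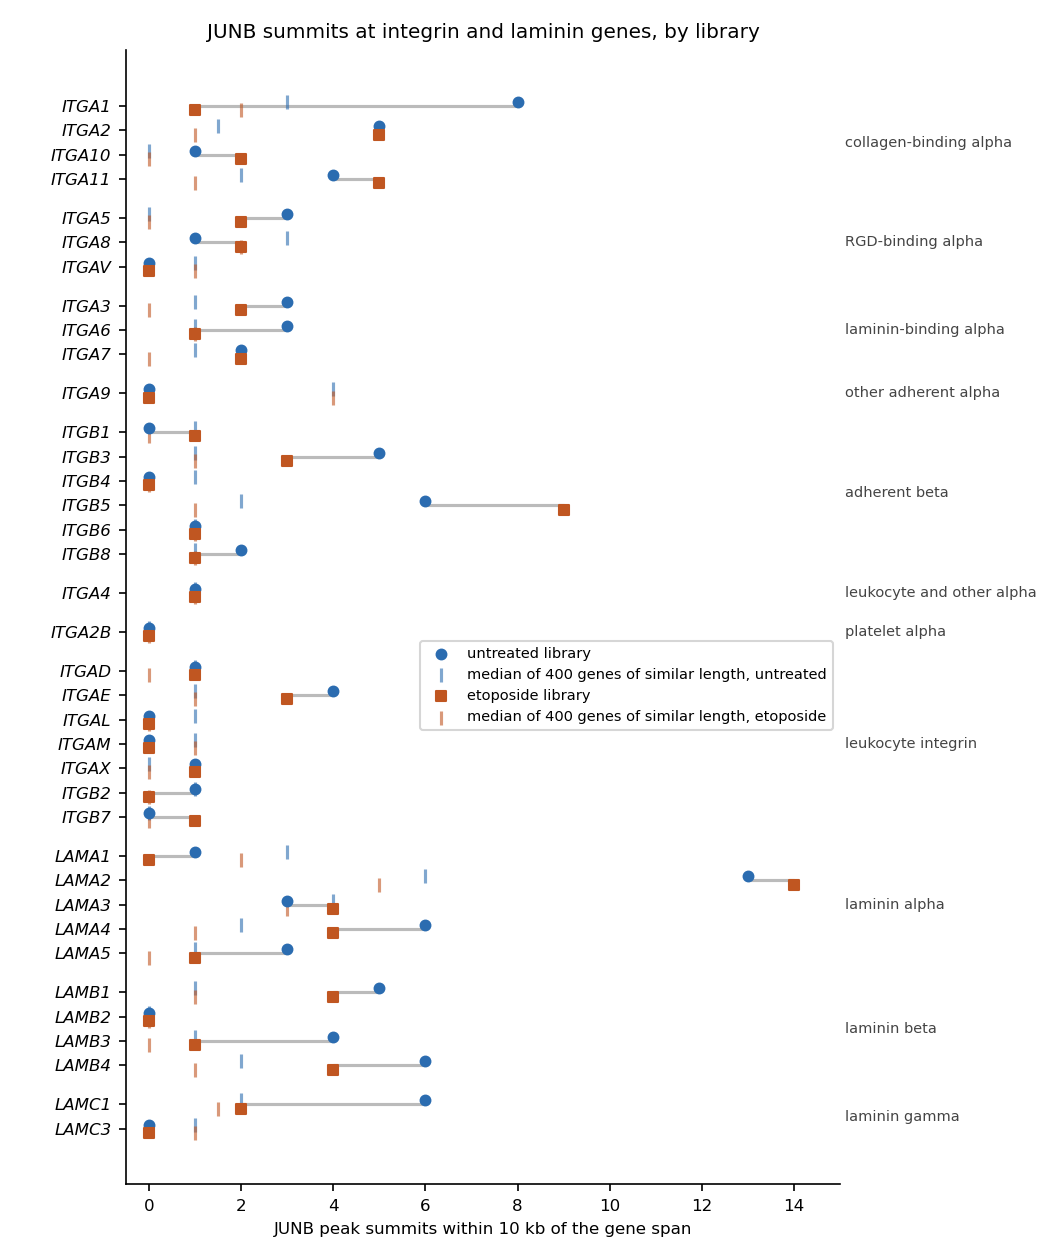
Number of JUNB summits within 10 kb of each of the 37 genes (horizontal axis) in the untreated (circles) and etoposide (squares) library, grouped by role, with vertical ticks at the median of the 400 protein-coding genes of nearest length. ITGA1 has the widest gap, 8 untreated summits against 1, and ITGB5 has 6 against 9.

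Integrin receptors for collagen all had summits. Their alpha chains, encoded by ITGA1, ITGA2, ITGA10 and ITGA11, pair with the beta chain of ITGB1. Together these 4 genes held 18 untreated and 13 etoposide summits, where length gives 8.28 and 6.12.

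ITGA1 had 8 untreated summits and 1 etoposide summit, and no peak at the gene was common to both. The gene spans 171 kb of chromosome 5, from 52787916 to 52959209. All its untreated peaks lay inside the gene, between 49.6 and 161 kb after the start, with 15, 21, 19, 11, 19, 11, 12 and 15 fragments at the summit. The single etoposide peak, at 52811263 to 52811458, lay 23.4 kb after the start, within 10 kb of PELO as well, and had 19 fragments. Of the 400 genes nearest in length, 0.750% differed by at least as many summits in either direction. Among the 498 protein-coding genes with 8 or more untreated summits the median number of etoposide summits was 8, and ITGA1 was the only one with at most 1; this group was formed after the values of ITGA1 were seen. In 2 of those 498 genes, ITGA1 and PIEZO2, no untreated peak had a counterpart. The untreated peaks were of middling strength: with only peaks of -log10 q of at least 5 ITGA1 had 6 against 1, and 10 of 691 genes with 6 or more untreated summits then had at most 1 etoposide summit. With the same number of strongest peaks from each list it was again 6 against 1, as for 4 of 590 genes. Among the 10000 strongest peaks of each list ITGA1 had 1 and 1.

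ITGA2, the next integrin gene along chromosome 5, had 5 summits in each library, of which 3 were at common places. The strongest stood 1.42 kb before the start in the untreated library, at 52987789 to 52988072, with 40 fragments, and 1.38 kb before it in the etoposide library with 32. The other common peaks had 20 and 16 fragments and 23 and 17 fragments. Of the 400 genes of similar length, 5% had more untreated summits and 1.25% had more etoposide summits.

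ITGA11, a collagen receptor chain of fibroblasts and other mesenchymal cells, had 4 untreated and 5 etoposide summits. The untreated peaks, with 16, 20, 28 and 12 fragments, each had a counterpart, with 9, 15, 28 and 10 fragments. A further etoposide peak with 8 fragments had none. ITGA10, whose product is typical of cartilage, had 1 common peak near its far end with 16 and 14 fragments, and 1 etoposide peak with 6 fragments 9.10 kb before its start.

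**Figure D2:**
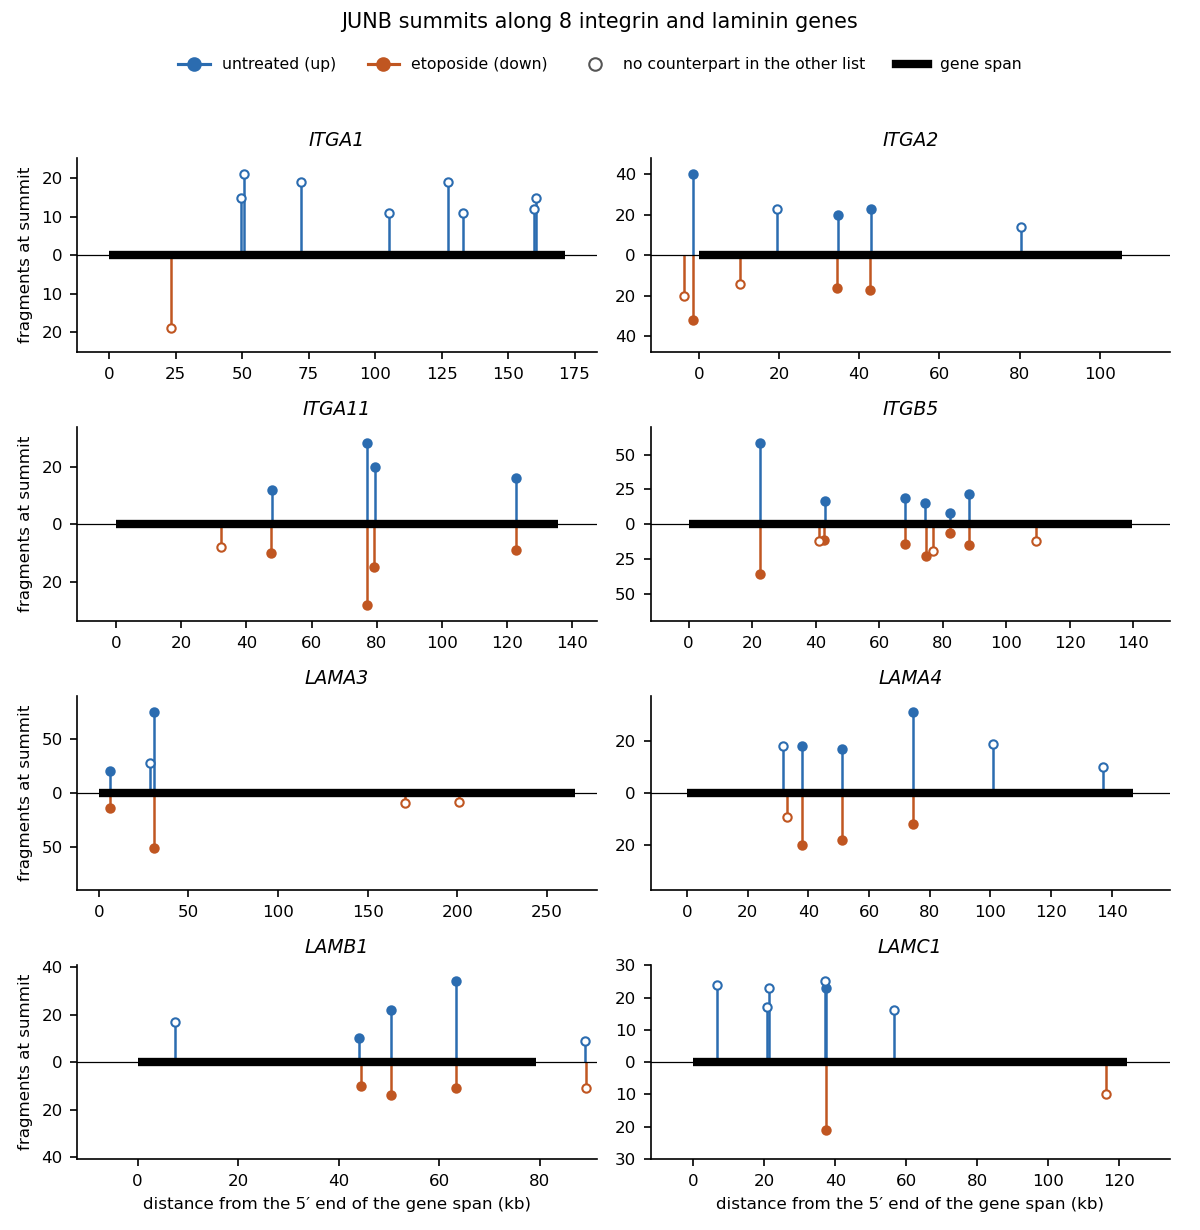
JUNB summits along 8 of the genes, placed by distance from the 5′ end of the gene span (horizontal axis, kb) with the fragments at the summit as height, untreated upwards and etoposide downwards; filled points have a counterpart in the other list. ITGA1 has no filled point, whereas every untreated peak of ITGB5 and ITGA11 is filled.

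Alpha chains of receptors that recognise the RGD motif of fibronectin and vitronectin held 4 summits in each library, where length gives 6.01 and 4.64. ITGA5 encodes the alpha chain of the main fibronectin receptor. It had 3 untreated summits with 18, 19 and 15 fragments and 2 etoposide summits with 9 and 8 fragments. The peak without a counterpart was the one described above at its start, whose summit lay 79 bp before the start and held 19 fragments. At 24.0 kb ITGA5 is short, and 1.5% of the 400 genes of similar length had more untreated summits. ITGA8 had 1 common peak, with 22 and 15 fragments, 140 kb after its start, and a weaker etoposide peak beside it with 10. ITGAV, the alpha chain shared by the vitronectin receptors, had no summit within 10 kb in either library; the nearest were 14.4 kb (untreated) and 14.8 kb (etoposide) from the gene.

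The alpha chains of laminin receptors, ITGA3, ITGA6 and ITGA7, held 8 untreated and 5 etoposide summits, where length gives 3.39 and 2.25. ITGA3 had 3 and 2, of which the peak at 50050952 to 50051425 on chromosome 17, 4.77 kb outside the gene, was common with 20 and 15 fragments. ITGA6 had 3 and 1. Its 2 untreated peaks without a counterpart stood near each other, 14.4 and 14.8 kb after the nearest start, with 14 and 25 fragments, and its common peak had 14 and 13. ITGA7, the laminin receptor chain of muscle, had 2 in each library, both common, with 19 and 8 and with 16 and 13 fragments. Its second peak lay inside the neighbouring gene RDH5, and both lay within 10 kb of BLOC1S1 and CD63 as well. ITGA9, a receptor chain for tenascin, is 371 kb long and had no summit in either library, with the nearest 161 kb and 129 kb away. Of the 400 genes nearest to it in length, 81.0% had an untreated and 77.2% an etoposide summit.

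Beta chains of adherent cells differed widely among themselves. ITGB5 encodes a partner of the alpha chain of ITGAV in binding vitronectin, and held 6 untreated and 9 etoposide summits, all inside its 139.5 kb on chromosome 3. Of the 400 genes of similar length 0 had more in the etoposide library and 6.5% had more in the untreated library. Each untreated peak had a counterpart. The strongest, at 124878497 to 124879033 and 8.49 kb after the nearest start, had 58 fragments, and its counterpart had 36. The other 5 had 22, 8, 15, 19 and 17 fragments against 15, 6, 23, 14 and 11. The etoposide peaks without a counterpart had 12, 19 and 12 fragments. A difference of 3 or more, in either direction, was seen in 11.8% of the 400 genes of its length. With -log10 q of at least 5 ITGB5 had 6 and 7 summits.

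ITGB3, the beta chain shared by the vitronectin receptor and the platelet fibrinogen receptor, had 5 untreated and 3 etoposide summits. Only 0.750% of the 400 genes of similar length had more untreated summits. Its strongest untreated peak, at 47267174 to 47267896 on chromosome 17, had 38 fragments where the etoposide counterpart had 14. A common peak past the upper end of the gene had 14 in each. ITGB1, the partner of most alpha chains named here, had no untreated summit and 1 etoposide summit, 3.75 kb outside the gene and with 12 fragments. Its nearest untreated summit was 25 kb away and had 55 fragments. ITGB8 had 2 and 1, none of them overlapping. Its untreated peak at 20385406 to 20385704 on chromosome 7 stood close to the etoposide peak at 20385095 to 20385283. ITGB6, the epithelial beta chain that activates latent TGF-beta, had 1 summit in each library at different places, both over 8 kb before the start. ITGB4, the beta chain of hemidesmosomes in epithelia, had none.

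Leukocyte integrins were set beside those of adherent cells. Of the 7 leukocyte genes, 4 had a summit in each library, 57.1% (25.1% to 84.2%), where length gives 3.91 and 3.15. Of the 17 genes of adherent cells, 13 had an untreated summit, 76.5% (52.7% to 90.4%, length 11.2), and 14 an etoposide summit, 82.4% (59.0% to 93.8%, length 9.64). The intervals of the classes overlap widely in both libraries, and with 7 leukocyte genes these data do not separate the classes by this count. In summits, adherent genes held 44 untreated and 37 etoposide (length 32.5 and 24.1) and leukocyte genes 7 and 6 (length 7.31 and 5.17).

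Of the 6 untreated peaks at leukocyte genes 3 lay inside one of these 7 genes, and of the 5 etoposide peaks 4 did. In each library 3 of those inside were in ITGAE. For ITGAX and ITGAD, alpha chains of myeloid cells that lie next to each other on chromosome 16, the count of 1 in each library is the same peak, between the genes. In the untreated library it stood at 31386500 to 31386725 with 10 fragments, and in the etoposide library at 31386470 to 31386689 with 13, 3.61 kb and 3.57 kb from ITGAX. ITGB2, the beta chain common to the integrins of leukocytes, had 1 untreated peak, 4.64 kb outside the gene and within 10 kb of PTTG1IP, with 12 fragments. ITGB7, a beta chain of gut-homing lymphocytes, had 1 etoposide peak with 13 fragments, 1.18 kb after its start and within 10 kb of RARG as well. ITGAL and ITGAM, the alpha chains of the receptors LFA-1 and Mac-1 for ICAM proteins, had none. ITGAM is 53.7 kb from the nearest summit of either library, the same peak between ITGAX and ITGAD.

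ITGAE had the most among them, 4 untreated and 3 etoposide summits. Its product pairs with that of ITGB7 and holds lymphocytes to epithelial E-cadherin. Common peaks lay 27.3 kb after its start, with 19 and 14 fragments, and 5.76 kb after it, with 13 and 9. An untreated peak 1.85 kb before the start lay inside the neighbour NCBP3, and the etoposide peak at 3720182 to 3720406, with 17 fragments, lay also inside P2RX5. Counted within the gene spans alone, the leukocyte genes with a summit were ITGAE in the untreated library, and ITGAE and ITGB7 in the etoposide library. That is 1 and 2 of 7, beside 12 and 12 of the 17 genes of adherent cells, a wider gap than within 10 kb. The leukocyte genes are shorter, with a median of 42.9 kb against 86.0 kb for the genes of adherent cells. These counts inside genes were not set against genes of similar length by class, and the difference was not tested. ITGA4, found on leukocytes and on several other cells, had 1 summit in each library at different places, with 12 and 10 fragments. ITGA2B, the alpha chain of platelets, had none.

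**Figure D3:**
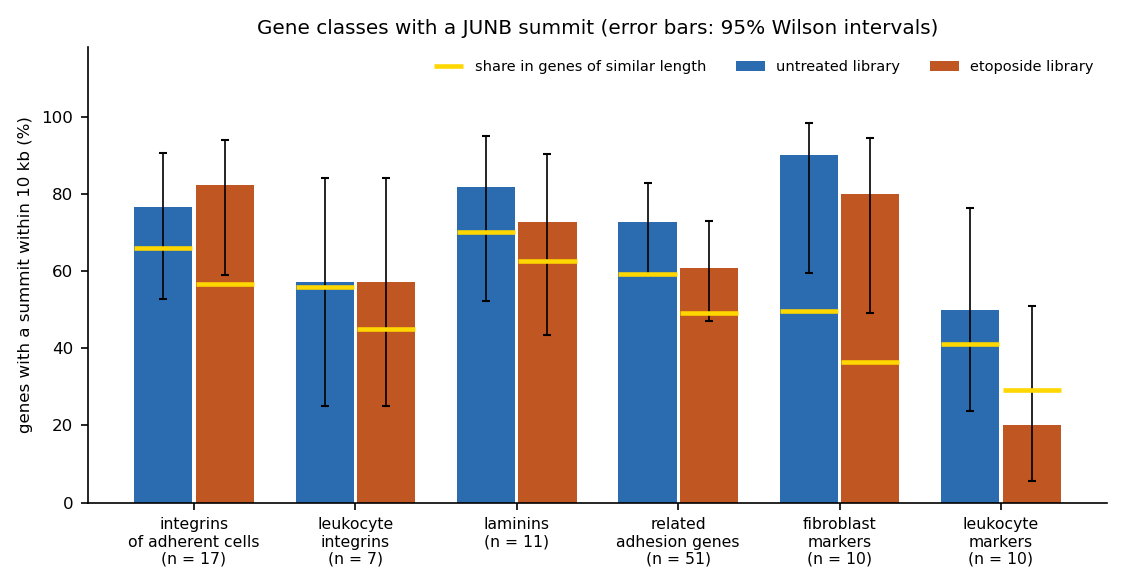
Share of the genes of each class with a JUNB summit within 10 kb (bars, in percent, with 95% Wilson intervals of counting error) in both libraries, with yellow lines at the share that genes of similar length give. Adherent-cell integrins stand at 76.5% and 82.4% and leukocyte integrins at 57.1% in both, with overlapping intervals.

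Laminin genes held 47 untreated and 34 etoposide summits, where length gives 28.2 and 21.5. Of the 11 genes, 9 and 8 had a summit (length 7.72 and 6.88). Of their untreated peaks 43 and of their etoposide peaks 32 lay inside the genes.

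Among the alpha chains, LAMA2, the laminin alpha chain of muscle basement membranes, had the most summits of all members, 13 untreated and 14 etoposide, along 633 kb of chromosome 6. There were 10 peaks in each library with a counterpart. Of the 400 genes nearest in length, 16.2% had more untreated and 8% more etoposide summits. The balance of the libraries at LAMA2 changed with the peaks used. With -log10 q of at least 5 LAMA2 had 8 untreated and 11 etoposide summits. With the same number of strongest peaks from each list it had 7 and 14, and among the 10000 strongest 2 and 5. Over the first 599 kb its peaks had 6 to 20 fragments. Nearer the far end, 608 kb after the start, the untreated peak at 129490433 to 129491097 had 71 fragments on a local background of 6.75 fragments, and its counterpart 29 fragments on 3.70. The median backgrounds of the lists were 1.27 (untreated) and 0.907 (etoposide). Next to it a common peak had 35 and 25 fragments on backgrounds of 7.11 and 3.88.

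LAMA3 encodes the alpha chain of the laminin that anchors epidermis. It held the strongest peak among the members in both libraries, at 23719584 to 23720133 on chromosome 18, with 75 (untreated) and 51 (etoposide) fragments. It lay 153 kb before the internal start printed above. A common peak nearer the 5′ end of the gene had 21 and 14 fragments. The nearest peak to that start was an etoposide peak with 9 fragments, 12.6 kb before it, without a counterpart. LAMA4, a chain of mesenchymal and endothelial basement membranes, had 6 and 4 summits, of which 3 were common. Its strongest had 31 fragments against 12, and the other 2 common peaks had 17 and 18 fragments against 18 and 20. LAMA5, a widespread chain of adult tissues, had 3 and 1, none inside the gene, and those past its far end lay also within 10 kb of ADRM1 and OSBPL2. LAMA1, a chain of embryonic basement membranes, had 1 untreated peak with 13 fragments.

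The beta chain genes LAMB1 and LAMB4 lie next to each other on chromosome 7. LAMB1, the beta chain of most laminins, had 5 and 4 summits. Its peaks at 107914071 to 107914301 (untreated) and 107913794 to 107913995 (etoposide) lay past its far end, inside the neighbour DLD. The strongest common peak of LAMB1, at 107939446 to 107939929, had 34 fragments against 11 in its etoposide counterpart. The other 2 common peaks had 22 and 14 fragments and 10 and 10. LAMB4 had 6 and 4, of which 2 untreated and 3 etoposide peaks had a counterpart, with 18 and 21 fragments in the untreated library. LAMB3, the beta chain that joins that of LAMA3, had 4 untreated summits with 9, 15, 16 and 22 fragments and 1 etoposide summit with 13. Only the peak at the internal start printed above, 84 bp and 160 bp after it, was common. Its summits lay 1.14 kb (untreated) and 1.21 kb (etoposide) inside the 5′ end of the gene. A difference of 3 or more was seen in 1.25% of the 400 genes of its length, and 0.250% had more untreated summits. LAMB2, the beta chain of synapses and kidney filters, had none.

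Of the gamma chains, LAMC1, part of most laminins, had 6 untreated summits with 24, 17, 23, 25, 23 and 16 fragments, and 2 etoposide summits with 21 and 10. A single place was common, 37.4 kb after the start, with 23 and 21 fragments. A difference of 4 or more was seen in 5.75% of the 400 genes of its length. LAMC3 had none.

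Across the members, 3 had at least 3 more summits in the untreated library (ITGA1, LAMB3 and LAMC1), beside 3.58% of protein-coding genes, and 1, ITGB5, had at least 3 more in the etoposide library, beside 0.416%. Those shares are over genes of all lengths. Which members differ by 3 or more depends on the peaks used. With -log10 q of at least 5, ITGB5 had 6 untreated and 7 etoposide summits, LAMA2 had 8 and 11, and LAMA4 had 6 and 3. With all listed peaks, 15 of the 37 had more untreated summits, 8 had more etoposide summits, 6 had as many of each and 8 had none. As shares of the members, 40.5% had more untreated, 21.6% more etoposide and 16.2% as many of each, beside 30.2%, 9.61% and 14.4% of all protein-coding genes. The untreated list is the longer, with 32550 peaks against 25739. With the same number of strongest peaks from each list, the members held 78 untreated and 78 etoposide summits, so the surplus of untreated summits was gone.

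**Figure D4:**
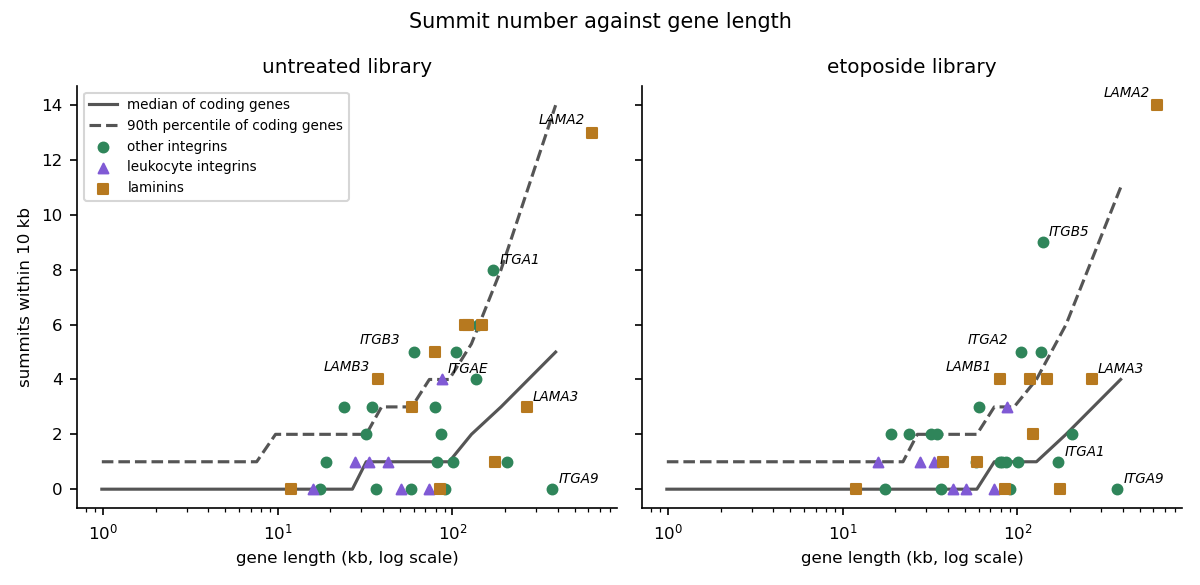
Summits within 10 kb (vertical axis) against gene length (kb, log scale) for the 37 genes in each library, with the median and the 90th percentile of protein-coding genes in 20 classes of length. ITGB5, with 9 etoposide summits, and LAMA2, with 14, have the most in that library, and ITGA9 has 0 at 371 kb.

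The 8 members without a summit were ITGA2B, ITGA9, ITGAL, ITGAM, ITGAV, ITGB4, LAMB2 and LAMC3. They take in the platelet chain, 2 leukocyte chains, 3 chains of adherent cells and 2 laminin chains. In a window of 50 kb only ITGA9 and ITGAM had none in either library. LAMB2, at 11.9 kb the shortest member, was 26.7 kb from an untreated and 219 kb from an etoposide summit.

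Member peaks lay mostly inside genes and far from starts, and the share inside genes was near that of other genes. Counting the peak between ITGAX and ITGAD once, there were 98 untreated and 77 etoposide peaks, of which 83.7% and 84.4% were inside a member, beside 82.8% and 85.2% of peaks in the windows of all protein-coding genes. Exons and introns were not told apart. For members with a known start, the median distance to the nearest one was 54.0 kb (untreated, 85 peaks) and 54.3 kb (etoposide, 69 peaks). These medians were not set beside other genes of such length. For LAMA3 only the internal start was at hand, so an untreated peak 6.24 kb inside its 5′ end counts as 177 kb away. Within 1 kb of a start there were 2 untreated peaks (2.35%), at ITGA5 and LAMB3, and 1 etoposide peak (1.45%), at LAMB3. Of all peaks of the lists, 8.1% (untreated) and 3.8% (etoposide) lay within 1 kb of the start of any protein-coding gene, a wider set of starts. Also within 10 kb of another protein-coding gene were 14 of the 99 untreated and 13 of the 78 etoposide summits, counted by gene.

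A counterpart in the other list, with at least 1 bp in common, was found for 49 of 98 untreated member peaks, 50% (40.3% to 59.7%), and for 50 of 77 etoposide peaks, 64.9% (53.8% to 74.7%). In the windows of all protein-coding genes the shares were 48.3% and 65.2%, inside both intervals. By class, 52.3% (38% to 66%) of untreated peaks of adherent-cell integrins and 48.9% (35% to 63%) of those of laminins had one. Of etoposide peaks 62.2% (46% to 76%) and 70.6% (54% to 83%) did. The intervals of the classes overlap widely in both libraries, so these shares do not order the classes.

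Fragments at the 49 common places could be set side by side. The ratio of etoposide to untreated fragments had a median of 0.750 (quartiles 0.647 and 0.929), beside 0.778 over all 16610 pairs of the lists. Of the 49, 37 had fewer fragments in the etoposide library, 8 had more and 4 had as many. The exact 95% interval of the ratio, which covers counting error only, lay below the median of all pairs at 4 places, beside 2.04% of all pairs, and above it at 0, beside 2.38%. Those 4 were the strong peaks of LAMB1 (ratio 0.324, 0.148 to 0.654), ITGB3 (0.368, 0.184 to 0.696), LAMA4 (0.387, 0.181 to 0.775) and LAMA2 (0.409, 0.256 to 0.637). Such an interval is narrow only where fragments are many: among all pairs with at least 31 untreated fragments, the number of the weakest of the 4, the share was 9.52%. Of the 8 member pairs with as many, 4 were below, a share that rests on a limit set by the 4 themselves. The strongest pairs of LAMA3 and ITGB5, with ratios of 0.680 (0.467 to 0.984) and 0.621 (0.398 to 0.957), had intervals that took in the median.

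**Figure D5:**
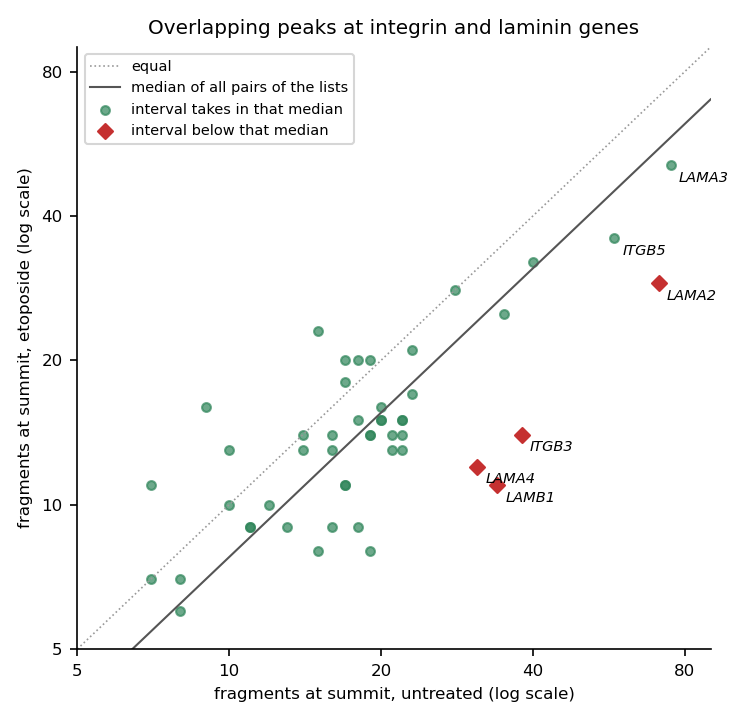
Fragments at the summit in the untreated (horizontal) and etoposide (vertical) library, both on log scales, for the 49 untreated member peaks with a counterpart. The solid line is the median ratio of all pairs, 0.778, and the diamonds mark the 4 pairs of LAMB1, ITGB3, LAMA4 and LAMA2 whose interval lay below it.

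Genes that work with these families were counted in the same way, in 4 lists of 51 genes in all. Of the 51, 37 had an untreated summit, 72.5% (59.0% to 82.9%, length 30.1), and 31 an etoposide summit, 60.8% (47.1% to 73.0%, length 25.04). Focal adhesion proteins, the inner partners of integrins, had a summit at 16 and 14 of 22 genes (length 14.1 and 12.1), with 84 and 54 summits where length gives 46.3 and 34.6. TLN2, a talin, had 13 and 11, and PTK2, the focal adhesion kinase, 10 and 6. TNS3 had 10 and 7, and LIMS1, an adaptor of integrin-linked kinase, 10 and 4. Basement membrane partners of laminins had a summit at 8 and 6 of 9 genes (length 5.71 and 4.88), led by COL4A2, a chain of type IV collagen, with 14 and 7. Matrix proteins bound by integrins had one at 9 and 8 of 13 (length 6.88 and 5.49), led by FBN1, the fibrillin of elastic microfibrils, with 12 and 9, and TNC, tenascin, with 4 and 5. Ligands of leukocyte integrins had one at 4 and 3 of 7, near the 3.48 and 2.61 that length gives, led by JAM3 with 3 and 3, and ICAM1 had none.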

How the data were processed

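JUNB CUT&RUN peaks of 1 untreated and 1 etoposide-treated IMR-90 library were read from the authors' 2 deposited narrowPeak lists. Bowtie2, MACS2, hg38 and mm10 are named in the submitters' processing notes, without roles, versions or settings. The lists were read as GRCh38, since their chromosomes and contigs bear the names of that human assembly; the sources used here do not tie a build to a file. The deposited fold is a ratio of summit signal to local background, the deposited -log10 p and -log10 q are those of the summit, the deposited score is 10 times -log10 q, and the summit offset in bp stands in the last column. All are the peak's own values from the authors. Fragments at a summit were the whole number k for which the fold is (k + 1)/(b + 1), b being the local background, and the p is the Poisson upper tail, found for 100% of peaks of both lists within 0.001; the counting steps were tested on simulated data. The depth of the libraries relative to each other was estimated from their lowest backgrounds, each divided by the smallest peak width (202 bp untreated, 189 bp etoposide), taking these for genome-wide coverage and fragment length. Contigs and Y were left out.

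Summits were counted in RefSeq GRCh38.p14 gene windows of 10 kb with python 3.11.15, pandas 2.3.3 and scipy 1.17.1. No count model or test was run, with 1 library per condition. Genes described in detail had 4 or more summits in a library, a difference of 3 or more, none, a summit within 1 kb of a start, or were leukocyte integrins; the others are given briefly. The members and lists were chosen with earlier results of these data known. Intervals cover counting error only, and fragments are not shown to be independent molecules. Alternatives were the window, the peaks used, the number of genes of similar length, the overlap, the class of ITGA4 and counting a summit for its nearest gene alone; the last was added after seeing the data for the classes, the members by library and the comparison with length.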

Additional observations from a re-analysis of the deposited data

How the results depend on the processing

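No paired analysis was possible because each condition has 1 library. Of 112 values recomputed under the alternatives, 89 stayed within 1.5 times the reported count, or within the interval of the share, and 23 moved further. Within the gene spans alone, leukocyte integrins with a summit came to 1 (untreated) and 2 (etoposide), members with summits in the untreated library alone to 1, in the etoposide library alone to 1 and in neither to 14. In a window of 50 kb the members held 163 untreated and 119 etoposide summits, with 4 members in the untreated library alone and 2 in neither. With the 10000 strongest peaks of each list, members with a summit came to 15 (untreated) and 17 (etoposide), their summits to 19 and 26, adherent-cell integrins to 7 and 8, untreated leukocyte integrins to 1 and untreated related genes to 24. Members were then in both libraries in 12 cases, in the etoposide library alone in 5 and in neither in 17, and 32.0% of etoposide member peaks had a counterpart. With an overlap of at least 50% of both peaks, 32.65% of untreated and 41.56% of etoposide member peaks had a counterpart. The cause was not tested; fewer peaks, a narrower window and a stricter overlap leave less to count by construction. With 1 library per condition no difference has a replicate check, and a list with fewer peaks at lower depth cannot show that a place lacks JUNB.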
